A study of Mus musculus with 8 samples.

Results

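The 10 genes of the Polycomb system were examined in mouse cortex with and without Ptbp2: Sfmbt2, its paralog Sfmbt1, the DNA-binding factor Yy1, the Polycomb repressive complex 1 (PRC1) genes Phc1, Phc2, Ring1 and Rnf2, and the Polycomb repressive complex 2 (PRC2) genes Ezh2, Eed and Suz12. They comprise every probe set of the array table annotated to exactly 1 of these symbols, 236 of 625534 probe sets. Sfmbt2 was chosen by its measured level, which differed between the 2 groups compared here, so its difference is described and not tested. The other 9 genes were chosen for their function, with earlier results of these data known. Cortical RNA was taken at embryonic day 18.5, and both groups were of mixed CD1 and C57BL/6 background. One group was wild type (4 arrays) and the other was knockout for Ptbp2 (4 arrays), a neuronal RNA-binding protein that regulates splicing. Each Affymetrix exon array held the RNA of 1 embryo, and the allele, any Cre driver and the embryos' sex were not given in the labels.

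Polycomb proteins keep developmental genes repressed. PRC2 methylates a lysine of histone H3 through its enzyme Ezh2, and PRC1 ubiquitinates histone H2A through Ring1 or Rnf2 and compacts chromatin through polyhomeotic proteins such as Phc1 and Phc2. The fly ortholog of Sfmbt1 and Sfmbt2 works in a further complex beside Pho, the fly counterpart of Yy1, and reads methylated histone lysines through its MBT repeats. Mouse Sfmbt2 is an imprinted gene, best known for paternal expression in the placenta and its precursors. In the developing cortex, Polycomb proteins are known for setting the timing of neurogenesis.

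Because Sfmbt2 was the member that differed, the sequence before its start is shown, from RefSeq (build GRCm38.p6). It lies on the plus strand at chr2:10370201-10370439 and holds 7 CpG dinucleotides. All 10 members had a promoter window in that table, 13 windows in all, each with 250 bases before and 50 after a start. The windows were searched on both strands for GCCATNTT, a core of the YY1 binding motif (AANATGGC on the other strand), which 6.05% of all 32851 windows held. Of the 13 member windows, 1 held it, that of the second Sfmbt2 start. The match lies after that start, on the plus strand at chr2:10372445-10372452, and is shown in capitals within the 30 bases of chr2:10372434-10372463. A match describes the letters only. The 2 Sfmbt2 windows held 9 and 16 CpG dinucleotides, against a median of 7 over all windows. Most windows of the other members held more, up to 45 in Phc2, while that of Phc1 held 9 and another of Phc2 held 2.
Sfmbt2 before its start: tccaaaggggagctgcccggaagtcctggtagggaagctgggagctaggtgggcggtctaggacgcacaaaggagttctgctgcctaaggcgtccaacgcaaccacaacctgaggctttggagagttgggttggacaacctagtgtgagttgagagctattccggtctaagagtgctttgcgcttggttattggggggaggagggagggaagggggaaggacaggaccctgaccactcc
Sfmbt2 second start, YY1 motif: atagagaggatGCCATATTggaatgaggct

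The values are log2 signals per probe set, a group of short probes within an exon, so a difference of 1 is a doubling. Probe sets with a mean signal of at least 6.84, the median of the table, were retained, and a gene's level was the median of its retained probe sets. Of the 236 member probe sets, 198 were retained, and all 10 members were among the 12960 genes tested. The median signal of an array lay between 6.82 and 6.93, and the median difference of all genes was 0.0027. Ptbp2 read 11.40, 11.15, 11.08 and 11.16 in wild type and 6.24, 5.80, 5.54 and 6.22 in the knockout, a difference of -5.25 (SE 0.14). The 8 tested markers of cortical neurons and their precursors lay between 8.25 (Emx2) and 11.64 (Neurod2). Knockout 2 stood apart in markers of the choroid plexus and knockout 4 in Tcf7l2, a marker of thalamus, with values given beside the other markers. Across all genes, 15 of 12960 (0.116%) differed at a limma adjusted p under 0.05, and 7 (0.054%) were higher in the knockout.

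Sfmbt2 was higher in every knockout array than in any wild type array. Its level read 7.59, 7.27, 7.50 and 7.36 in wild type and 8.58, 8.15, 8.06 and 8.66 in the knockout. Knockout arrays 1 and 4 were the highest, and the groups were separated by a gap between 7.59 and 8.06. The group means were 7.43 ± 0.14 and 8.36 ± 0.30 (SD, n = 4 each), a log2 difference of 0.93 (SE 0.13), or 1.91-fold. Groups that did not overlap were seen for 3.65% of all genes, and 1.68% were higher in this way. That share is given only as background, since this contrast chose the gene. In whole cortex, a difference in RNA per cell and a difference in the number of cells that express a gene cannot be told apart.

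**Figure D1:**
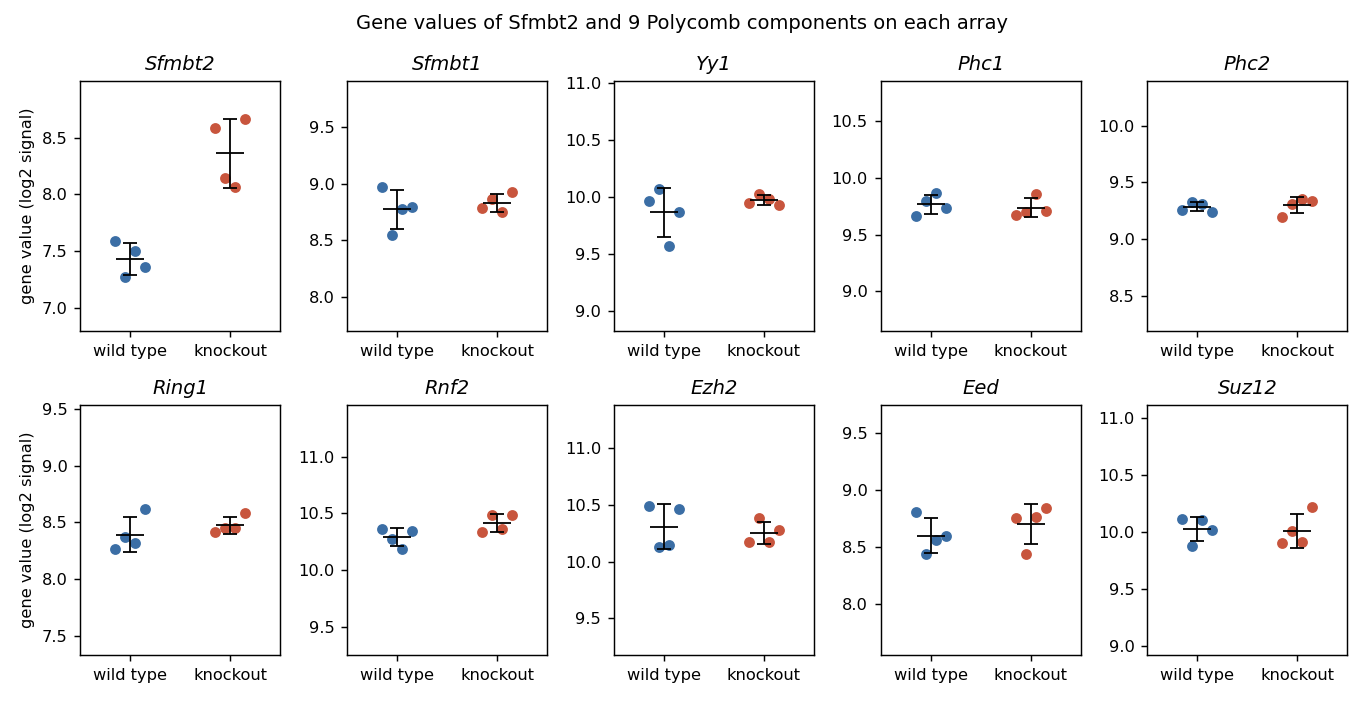
Gene level (log2 signal) of the 10 genes on each of the 8 arrays, with 1 panel per gene; points are arrays and bars are group means with SD, and every panel spans the same number of log2 units at its own height. The 4 knockout arrays of Sfmbt2 lie at 8.06 to 8.66, above the wild type arrays at 7.27 to 7.59, while the groups of the other 9 genes overlap.

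The Sfmbt2 probe sets differed in 1 direction but by unequal amounts. All 25 retained probe sets read higher in the knockout mean, with differences from 0.14 to 1.29 and a median of 0.89, and in 17 of them the groups did not overlap. The 17 probe sets below the signal filter were also all higher in the knockout mean, by 0.056 to 1.39 with a median of 0.51, and 4 of these had groups that did not overlap. Over the 625534 probe sets of the table, 54.2% read higher in the knockout and 2.38% were higher without overlap. Among the 312767 retained, 55.6% read higher and 2.73% were higher without overlap. These shares are given only as background, since this contrast chose the gene and so the direction of its probe sets.

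The filter took the mean of all 8 arrays, so probe sets 5607380, 4910047 and 4384781 passed it only through their knockout arrays. Their wild type means were 6.770, 6.835 and 6.783, below the filter at 6.843. The largest difference among retained probe sets was in 5607380. It read 6.69, 6.94, 6.58 and 6.87 in wild type and 8.28, 7.39, 7.99 and 8.56 in the knockout, a difference of 1.29 (SE 0.22). Its lowest knockout array, knockout 2, still lay above all 4 wild type arrays. Probe set 4542653 read 7.59, 7.56, 7.69 and 7.06 in wild type and 8.86, 8.61, 8.45 and 8.88 in the knockout, a difference of 1.22 (SE 0.16). Here the 4 knockout arrays lay close together and wild type 4 was the lowest. Below the filter, probe set 5078064 read 6.38, 6.02, 5.75 and 6.18 in wild type and 7.99, 6.75, 7.09 and 8.04 in the knockout, with a difference of 1.39. The knockout arrays of this probe set spread over more than 1 log2 unit, with knockout 1 and 4 the highest.

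The 3 brightest retained probe sets differed by less than the median. The brightest, 4540637, read 9.94, 10.12, 10.05 and 10.09 in wild type and 10.09, 10.30, 10.09 and 10.26 in the knockout, a difference of 0.14 (SE 0.11), and the groups overlapped. Probe set 5367454 read 8.91, 8.81, 9.32 and 9.25 in wild type and 9.50, 9.49, 9.61 and 9.95 in the knockout, a difference of 0.56 (SE 0.15). Probe set 4423381 read 8.45, 8.27, 8.68 and 8.52 in wild type and 9.50, 9.36, 8.94 and 9.53 in the knockout, a difference of 0.85 (SE 0.15). In both of these the groups did not overlap, and knockout 3 was the lowest knockout array in 4423381 but not in 5367454.

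Sorted by size, 6 retained Sfmbt2 probe sets differed by at least 1 on the log2 scale, and all 6 had groups that did not overlap. Their wild type means lay between 6.77 and 7.57, the lowest in 5607380, which passed the filter only through its knockout arrays. The same held for 4910047, also in this class. A difference of 0.5 to 1 was measured in 13, of which 10 did not overlap, with wild type means from 6.78 to 9.07. The remaining 6 differed by less than 0.5, and 1 of these, 4812772, did not overlap, with a difference of 0.44. Wild type means in this last class spanned 7.01 to 10.05. The place of each probe set in the gene is not used here, so the order along the transcript is not given.

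**Figure D2:**
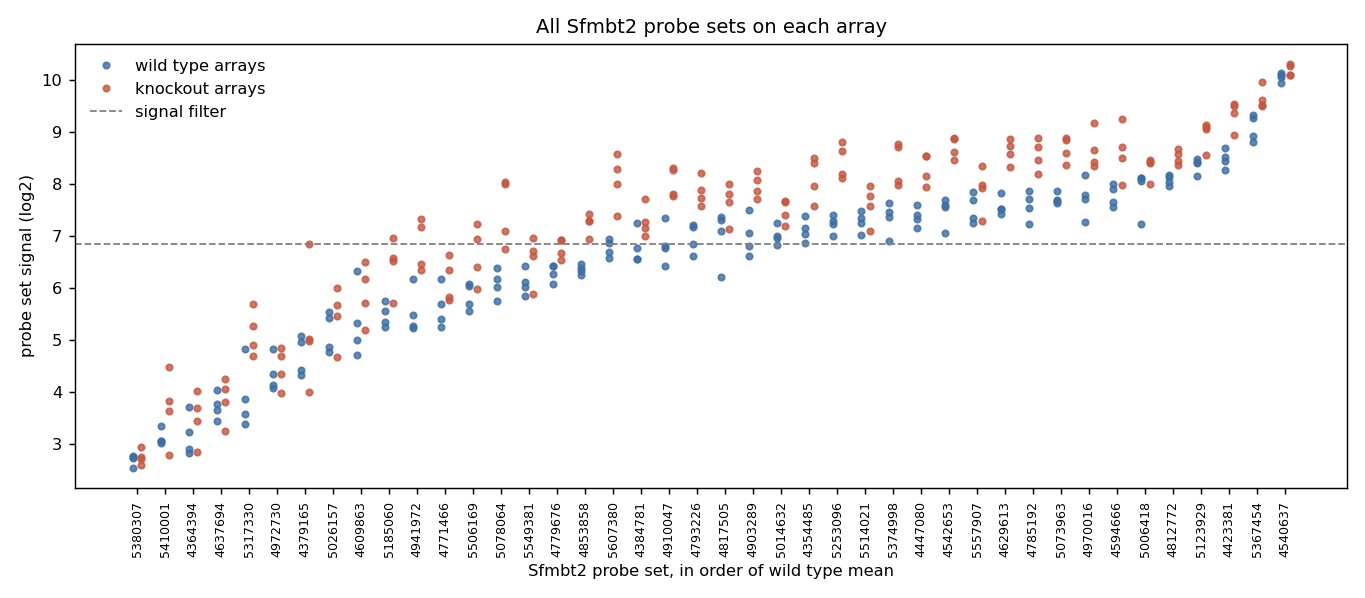
Log2 signal of all 42 Sfmbt2 probe sets on each array, ordered from left to right by wild type mean; points are single arrays and the dashed line is the signal filter at 6.84. In 17 of the 25 probe sets that passed the filter the knockout points lie above all wild type points; in the other 8, among them 4540637, the brightest, the groups overlap.

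The order of the arrays was counted over the Sfmbt2 probe sets, which share their arrays and are not replicates. Knockout 4 was the highest knockout array in 17 of the 25 retained probe sets, knockout 1 in 6, knockout 2 in 2 and knockout 3 in 0. Knockout 3 was the lowest in 13 and knockout 2 in 9. In wild type, array 3 was the highest in 12 probe sets but also the lowest in 8, and array 2 was the lowest in 9. The SD of Sfmbt2 within the knockout group was 0.30, against 0.14 in wild type, and whether the spreads differ was not tested.

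None of the other 9 genes passed the test of the same contrast. At the gene level, 0 of 9 passed a limma adjusted p under 0.05 (0.116% of all genes), 0 passed an unadjusted p under 0.05 (6.49% of all genes), and in 0 did the groups not overlap. Of the differences, 6 were above 0 and 3 below, with a median of 0.058, where 51% of all genes were above 0. After cyclic loess normalization, 5 were above 0 and 4 below, where 5482 of all 12960 genes were above 0.

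Sfmbt1 and Yy1 stand nearest to Sfmbt2 in function. Sfmbt1, the paralog with the same MBT repeats, read 8.97, 8.55, 8.78 and 8.79 in wild type and 8.79, 8.86, 8.75 and 8.92 in the knockout. The highest and the lowest of its 8 values were both wild type. Its difference was 0.058 (SE 0.10, 95% interval of the difference -0.16 to 0.27, adjusted p = 0.97). Of its 25 retained probe sets, 9 read higher and 16 lower, and their median difference of -0.064 was opposite in sign. Yy1, a zinc finger factor that recruits chromatin regulators to DNA, read 9.96, 10.07, 9.57 and 9.86 in wild type and 9.94, 10.03, 9.99 and 9.93 in the knockout. Wild type 3 was the lowest, and the knockout arrays fell inside the wild type range. The difference was 0.11 (SE 0.11, 95% interval -0.12 to 0.33, adjusted p = 0.93).

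The PRC1 genes divide into the polyhomeotic subunits and the ubiquitin ligases. Phc1, which oligomerises through its SAM domain, read 9.67, 9.79, 9.87 and 9.73 in wild type and 9.68, 9.70, 9.86 and 9.70 in the knockout, a difference of -0.030 (SE 0.090, interval -0.22 to 0.16, adjusted p = 0.98). Array 3 was the highest of each group. Phc2, its paralog, read 9.26, 9.33, 9.31 and 9.24 in wild type and 9.20, 9.31, 9.35 and 9.33 in the knockout. All 8 values of Phc2 lay close together. Its difference was 0.012 (SE 0.086, interval -0.17 to 0.19, adjusted p = 0.99). It was -0.0060 after cyclic loess normalization and -0.22 with no signal filter, which lies below that interval.

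Ring1, a ligase that ubiquitinates histone H2A, read 8.26, 8.37, 8.32 and 8.62 in wild type and 8.41, 8.45, 8.45 and 8.59 in the knockout. Wild type 4 was the highest of the 8. The difference was 0.084 (SE 0.098, interval -0.12 to 0.29, adjusted p = 0.95), and it was -0.037 with array weights. Rnf2, the other ligase, read 10.37, 10.28, 10.19 and 10.34 in wild type and 10.33, 10.48, 10.37 and 10.49 in the knockout. Knockout 2 and 4 lay above the wild type arrays, and knockout 1 and 3 within their range. The difference of 0.12 (SE 0.089, interval -0.065 to 0.31, adjusted p = 0.89) was the highest among the 9.

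In PRC2, Ezh2 is the methyltransferase, Eed binds the methylated histone tail and Suz12 is the scaffold. Ezh2 read 10.49, 10.13, 10.14 and 10.46 in wild type and 10.18, 10.38, 10.17 and 10.28 in the knockout, a difference of -0.055 (SE 0.11, interval -0.28 to 0.17, adjusted p = 0.98). The wild type arrays fell into a high and a low pair, and the knockout arrays lay between them. Eed read 8.80, 8.44, 8.56 and 8.60 in wild type and 8.76, 8.44, 8.77 and 8.84 in the knockout, a difference of 0.10 (SE 0.11, interval -0.13 to 0.33, adjusted p = 0.94). Array 2 was the lowest of each group. Suz12 read 10.11, 9.87, 10.10 and 10.01 in wild type and 9.90, 10.01, 9.91 and 10.22 in the knockout. Its lowest value was wild type 2 and its highest knockout 4. The difference was -0.015 (SE 0.10, interval -0.23 to 0.20, adjusted p = 0.99), and it was 0.017 with array weights.

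No single probe set of these 9 genes passed the test either. Of 173 retained, 90 read higher and 83 lower, by -0.46 to 0.46 with a median of 0.0054. A limma adjusted p under 0.05 was reached by 0 (0.0921% of all retained probe sets), and the smallest was 0.54. An unadjusted p under 0.05 was reached by 3 of 173, against 7.44% of all retained probe sets. Groups did not overlap in 1 of 173, against 4.24% of all. That probe set, Sfmbt1 5129428, was named after its values were seen and read 10.42, 10.41, 10.16 and 10.35 in wild type and 10.47, 10.62, 10.54 and 10.42 in the knockout, a difference of 0.18 (SE 0.11). The gap between its groups was narrower than the spread within either.

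**Figure D3:**
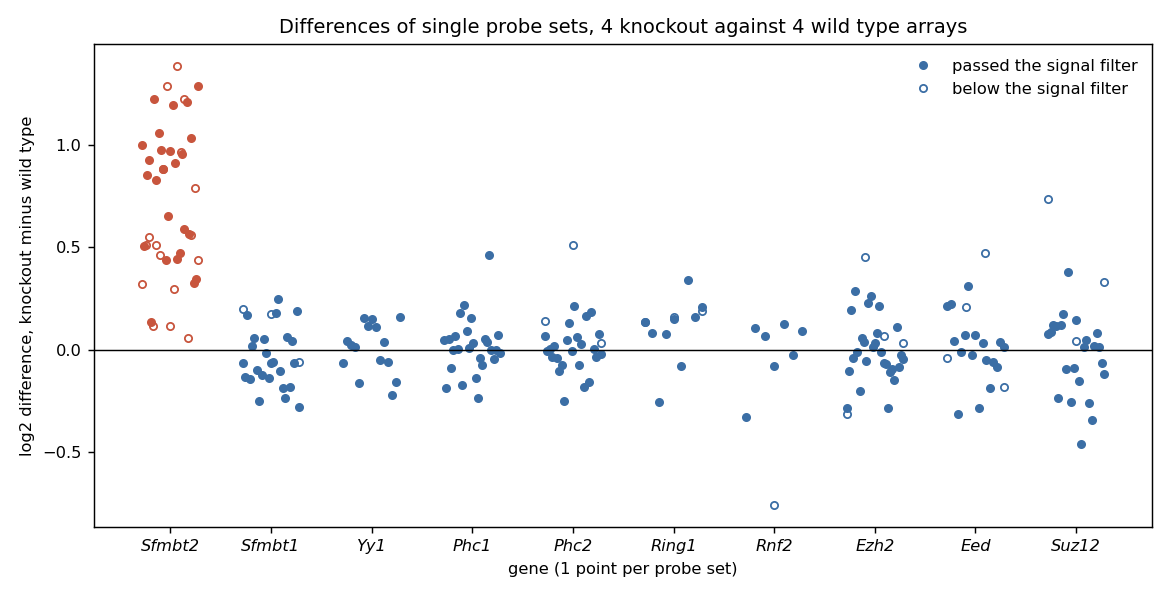
Log2 difference (knockout minus wild type) of every probe set of the 10 genes; filled points passed the signal filter and open points did not. The Sfmbt2 points all lie above 0, up to 1.39, while the retained points of the other 9 genes lie between -0.46 and 0.46.

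Usage, the level of a probe set relative to the others of its gene, tests for a shift in exons or transcript ends. By limma's diffSplice, 0 of the 173 probe sets passed an adjusted p under 0.05 (0.212% of all tested), and 6 passed an unadjusted p under 0.05 (4.57% of all tested). By the splicing index, 0 passed (0.00869% of all tested) and 6 passed unadjusted (5.27% of all tested). The probe set nearest to the threshold was Phc1 5445866. It read 8.53, 8.67, 8.90 and 8.40 in wild type and 9.03, 8.73, 9.33 and 9.27 in the knockout, a difference of 0.46 (SE 0.16, adjusted p = 0.54). Only knockout 2 fell within the wild type range. Its usage deviated by 0.46 (diffSplice adjusted p = 0.19), and by the splicing index the adjusted p was 0.90. Leaving out knockout 2 gave a deviation of 0.55 (adjusted p = 0.011), and array weights gave 0.58 (adjusted p = 7.9e-04). With array weights Ezh2 4847019 also passed, with a deviation of 0.47 (adjusted p = 0.034).

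In Suz12, the lowest difference of the 173 was in probe set 4949233. It read 9.97, 9.67, 9.999 and 9.80 in wild type and 9.46, 9.46, 8.96 and 9.72 in the knockout, a difference of -0.46 (SE 0.16, adjusted p = 0.56). Knockout 3 was far below the other 7 arrays, and knockout 4 lay among the wild type values. Suz12 4583605 went the other way, with a difference of 0.38 (SE 0.15, adjusted p = 0.59). Of the lowest probe set of each of the 9 genes, knockout 3 was also the lowest array in Rnf2 4663429 (8.90, difference -0.33), Ezh2 4340738 (9.19, difference -0.29), Phc1 5157964 (9.09, difference -0.23), Phc2 4814020 (8.78, difference -0.25) and Eed 4759763 (6.86, difference -0.31). Its part in those differences was not tested. In the remaining 3, the lowest differences were -0.28 for Sfmbt1 5544388, -0.26 for Ring1 4522959 and -0.22 for Yy1 5252100. At the upper end, the highest differences were 0.34 for Ring1 5259040, 0.31 for Eed 4985382, 0.29 for Ezh2 4533072, 0.25 for Sfmbt1 5157135, 0.21 for Phc2 5051550, 0.16 for Yy1 5520409 and 0.13 for Rnf2 5479385. None of these passed the test.

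The wider Polycomb system was read from lists of 119 further genes, of which 115 were on the array and 68 were tested. None was called at a limma adjusted p under 0.05. The differences split evenly, 34 above 0 and 34 below, with a median of -0.00030. An unadjusted p under 0.05 was reached by 5 and groups did not overlap in 4, against 6.49% and 3.65% of all genes. Their differences lay between -0.41 and 0.30. All fell short of Sfmbt2, but this contrast chose that gene, so the comparison says nothing about the lists.

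Among 10 other PRC2 genes, 7 were above 0 and 3 below, with a median of 0.065. Rbbp4, a histone-binding subunit, differed by 0.17 and the accessory subunit Aebp2 by 0.14. Epop, an accessory subunit that links PRC2 to elongin, was lower without overlap, by -0.16 (SE 0.091, adjusted p = 0.83). Among 20 other PRC1 genes, 9 were above 0 and 11 below, with a median of -0.024. Cyclic loess normalization gave 7 above 0 and 13 below, where 5482 of all 12960 genes were above 0. Pcgf2, also known as Mel18 and a partner of the ring ligases, read 9.72, 9.69, 9.79 and 9.76 in wild type and 10.13, 9.97, 9.95 and 10.11 in the knockout. These groups did not overlap and each was tight, yet the difference of 0.30 (SE 0.088) had an adjusted p of 0.42. Rybp, which takes the place of Cbx proteins in variant PRC1, read 10.63, 10.38, 10.17 and 10.64 in wild type and 10.07, 10.51, 9.70 and 10.13 in the knockout, a difference of -0.35 (SE 0.15, adjusted p = 0.75). Knockout 3 was the lowest and knockout 2 lay among the wild type values. Pcgf3 differed by -0.13 (adjusted p = 0.86).

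Of the other genes with MBT repeats, 5 were tested, with 2 above 0 and 3 below. Scml2 was lower without overlap, by -0.19 (adjusted p = 0.77), L3mbtl3 differed by 0.18 (adjusted p = 0.79) and Scml4 by -0.16 (adjusted p = 0.83). The Polycomb deubiquitinase genes (PR-DUB), which remove the mark of PRC1, had 6 of 9 above 0, with Asxl1 at 0.13, Mbd6 at -0.064 and Foxk1 at -0.11. Of the demethylases that remove the mark of PRC2, Kdm6b was at -0.076 and Kdm6a at 0.0015, which was -0.018 after quantile and -0.026 after cyclic loess normalization, and -0.050 with array weights. All 6 genes of the INO80 complex and other Yy1 partners were above 0, also under quantile and cyclic loess normalization and array weights, with a median of 0.098, led by Ruvbl2 at 0.17, Actr8 at 0.12 and Actr5 at 0.089. None of these passed the test.

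Genes that Polycomb is known to repress often had fewer than 4 retained probe sets and were then not tested. Of 37 Hox genes on the array, 4 were tested, with Hoxb3 at 0.16 (adjusted p = 0.88), Hoxd11 at 0.16 and Hoxa10 at -0.081. Of 24 other classical targets on the array, 12 were tested, of which 1 was above 0 and 11 below, with a median of -0.13. After quantile or cyclic loess normalization 0 were above 0, and with array weights 2. These settings also lowered the count over all 12960 genes, of which 6605 were above 0 in the main fit. It was 5766 after quantile normalization, 5482 after cyclic loess and 6047 with array weights. Pax2, a patterning factor of midbrain and hindbrain, read 7.39, 7.84, 7.68 and 7.82 in wild type and 6.94, 7.56, 7.28 and 7.32 in the knockout. The difference of -0.41 (SE 0.13, adjusted p = 0.54) passed the threshold with array weights, at -0.53 (adjusted p = 0.049). Gata6, an endoderm factor, was lower without overlap, by -0.24 (adjusted p = 0.74), and Cdkn2a, the cell cycle inhibitor locus, differed by -0.21 (adjusted p = 0.76). The median of -0.13 and the count describe the list only.

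**Figure D4:**
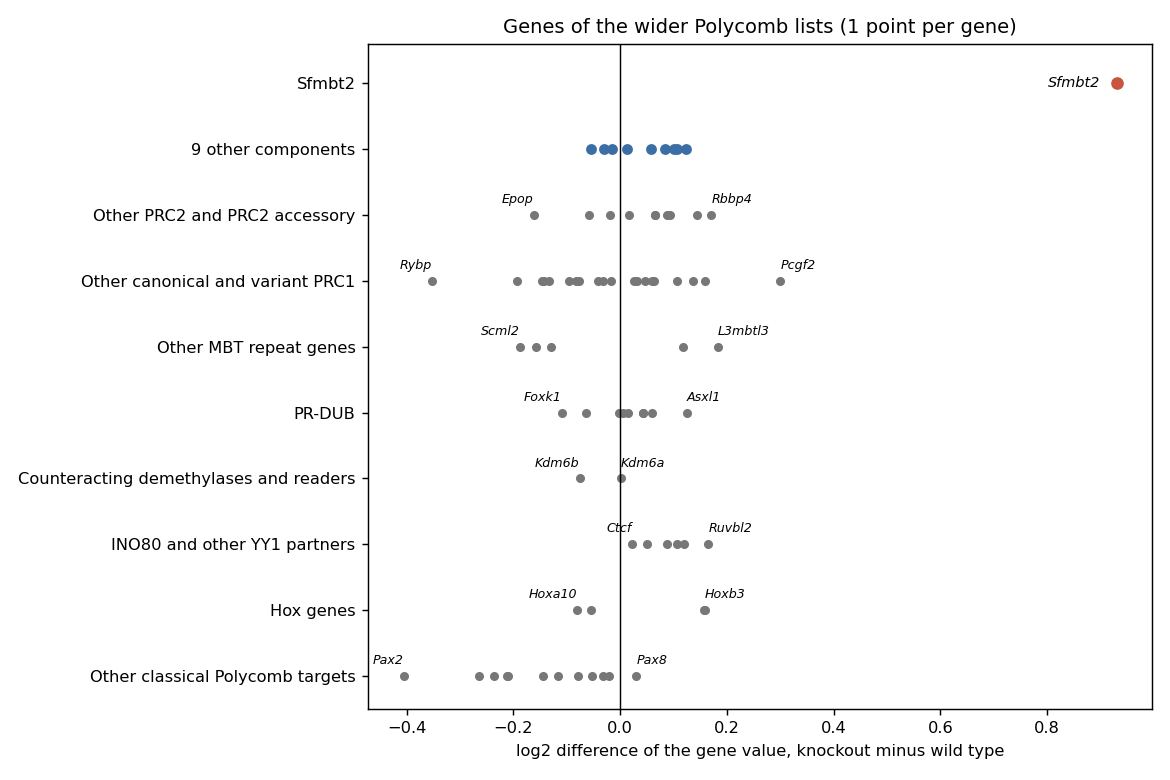
Log2 difference (knockout minus wild type) of the gene level for Sfmbt2, the 9 other members and each wider list, with 1 point per gene; the lowest and highest gene of each wider list are named. Sfmbt2 stands at 0.93, and the wider lists lie between -0.41 (Pax2) and 0.30 (Pcgf2).

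Genes beside Sfmbt2 on chromosome 2 were set against it, 5 on each side among those tested, and are described without a test. Of these 10, 3 were above 0 and 1 did not overlap, against 51% and 3.65% of all genes. That gene, Prkcq, encodes a protein kinase C isoform and is the nearest tested gene on the far side of Sfmbt2. It read 8.21, 7.70, 7.77 and 7.90 in wild type and 7.56, 7.63, 7.35 and 7.66 in the knockout, a difference of -0.35 (SE 0.12), opposite in sign to Sfmbt2. Itih5, the nearest tested gene on the other side, differed by 0.12 (SE 0.095), and its groups overlapped. Beyond these, Taf3, Atp5c1, Kin, Itih2, Pfkfb3, Rbm17, Il15ra and Fbh1 lay between -0.12 and 0.076. Leaving out 1 array gave ranges that spanned 0 for Taf3, Atp5c1, Kin, Itih2 and Rbm17, so the count above 0 depends on single arrays. RefSeq places 72 microRNA genes inside Sfmbt2, and 0 of them had a probe set of 1 symbol here.

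**Figure D5:**
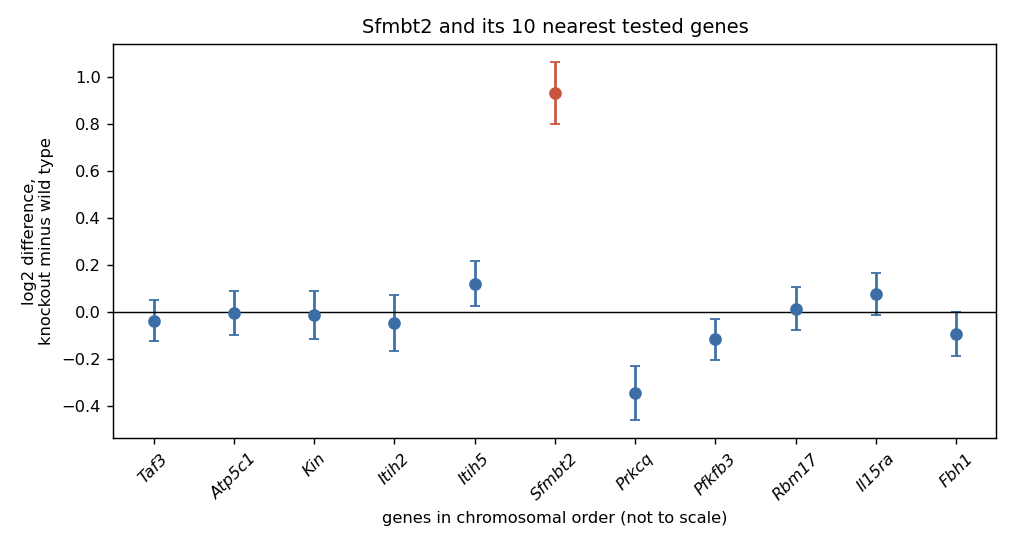
Log2 difference (knockout minus wild type) with its SE for Sfmbt2 and the 5 nearest tested genes on each side, in chromosomal order and not to scale. Sfmbt2 lies at 0.93, Prkcq at -0.35, and the other 9 between -0.12 and 0.12.

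Likeness to Sfmbt2 was measured as Pearson's r over the 8 arrays after each group's mean had been subtracted, which leaves out the difference that chose the gene. Of 12959 other genes, 69 had an r of at least 0.9 and 21 of at most -0.9, and with 8 arrays that share their scaling these values are a description. The most like were Dscam (0.98), Zfp33b (0.97), Cadps (0.97), Sdc2 (0.97) and Snhg14 (0.97). Dscam kept an r of 0.97 to 0.99 when any 1 array was left out. The least like were Capn9 (-0.97), Spsb1 (-0.97), Bpifb6 (-0.96), Pkd1l3 (-0.96) and Nphs1 (-0.95). Among the Polycomb genes, Eed (0.63), Suz12 (0.62) and Sfmbt1 (0.54) were nearest, at ranks 1514, 1587 and 2362. Ezh2 (0.10), Rnf2 (0.065) and Ring1 (-0.038) lay in the middle of the ranking, and Yy1 (-0.33), Phc2 (-0.45) and Phc1 (-0.53) towards its end. Without 1 array, the r of Suz12 ranged from 0.32 to 0.95 and that of Phc2 from -0.81 to -0.17.

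Markers of other cell types were read beside Sfmbt2, and none was called at a limma adjusted p under 0.05. The mean of the 2 tested of 7 microglia markers, Cd68 and Csf1r, lay between 7.73 and 7.91 in wild type and between 7.96 and 8.16 in the knockout. These means did not overlap, but the groups of each gene alone did. Cd68 differed by 0.35 (adjusted p = 0.42) and Csf1r by 0.056 (adjusted p = 0.97). Aif1, Cx3cr1, P2ry12, Tmem119 and C1qa were not tested here. The oligodendrocyte list (6 of 7 tested) ranged from 8.39 to 8.65 in wild type and from 8.27 to 8.41 in the knockout. All 6 genes were below 0, with a median of -0.12, where 51% of all genes were above 0. Olig2, named after its values were seen, was lower without overlap (-0.21, adjusted p = 0.77), 1 of 6 against 3.65% of all genes. The list for striatum, hippocampus and thalamus (9 of 9) ranged from 8.53 to 8.71 and from 8.20 to 8.78, with 3 genes above 0 and 6 below and a median difference of -0.28. Its groups did not overlap in 3 genes, and 5 reached an unadjusted p under 0.05, against 3.65% and 6.49% of all genes. The 3, named after their values were seen, are genes of striatal neurons and were all lower, Tac1 by -0.75 (adjusted p = 0.095), Penk by -0.47 (adjusted p = 0.18) and Drd1 by -0.28 (adjusted p = 0.54). In the same list, Tcf7l2 read 9.87 in knockout 4 and 7.66 to 7.94 in the other knockout arrays. The choroid plexus and meninges list (7 of 8 tested) ranged from 9.32 to 9.41 in wild type and from 8.16 to 9.54 in the knockout. Its lowest array, knockout 2, read 9.36 for Ttr against 13.18 to 13.38 on the other 7 arrays, 6.14 for Clic6 against 7.70 to 8.22, and 7.18 for Folr1 against 8.18 to 8.77. The difference of Sfmbt2 was 1.00 without knockout 2 and 0.83 without knockout 4. Progenitor markers (8 of 9) ranged from 9.65 to 9.88 and from 9.79 to 9.90, with 6 genes above 0 and 2 below. Interneuron markers (8 of 9) ranged from 9.98 to 10.21 and from 9.79 to 10.03, with 1 above 0 and 7 below. Astrocyte (6 of 6), vascular (6 of 7) and erythroid lists (2 of 5) also overlapped between the groups. Above 0 were 1 of 6 astrocyte, 5 of 6 vascular and 1 of 2 erythroid genes. The part of any of these in the level of Sfmbt2 was not tested.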

How the data were processed

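RNA of 8 embryonic cortices (4 wild type, 4 Ptbp2 knockout, biological replicates per the series' design text) was hybridised to Affymetrix mouse exon arrays, 1 array each. Deposited signals are on the log2 scale per probe set, made by the authors with RMA in Affymetrix Expression Console, per the submitters' processing notes, which also name the build mm9. RMA includes quantile normalization, so a shift of all genes together cannot be seen. The direction and scale were read as deposited, and no scanner files were used.

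Probe sets with exactly 1 gene symbol in GEO's platform annotation were named (303629, with 5892 carrying several symbols and 316013 none). Of 21634 symbols, 17657 were current in RefSeq and 3919 were updated through synonyms. The 312767 probe sets with a mean of at least the table's median were retained, and genes with at least 4 of them (12960) were tested across all genes with limma 3.58.1 (lmFit and eBayes, R 4.3.3), with Benjamini-Hochberg adjustment at 0.05. Single probe sets were tested in the same way over all retained probe sets. Usage was tested with limma's diffSplice over 195604 probe sets, Ptbp2 left out, and with the splicing index. All fits used the 8 arrays with no covariate. The scripts were tested on simulated data with known shifts. The number of arrays limits the precision.

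The members and all lists were chosen with earlier results of these data known. Named were all members, every Sfmbt2 probe set (in the text by its extremes and classes), the extreme probe set in each direction of the other members, up to 3 genes of the smallest p per wider list, the 5 nearest tested neighbours on each side of Sfmbt2, and the 5 genes most and least like it. Alternatives were leaving out each array, the replicate number as a block, other signal filters, quantile and cyclic loess normalization, trend and robust eBayes, array weights, adjustment for the level of Xist, gene means instead of medians, and 1 probe set as the minimum per gene. Leaving out both replicates numbered 3 was added after seeing the data. Promoter sequences came from RefSeq, matched by symbol.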

Additional observations from a re-analysis of the deposited data

Results flagged for a closer look

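In 11 of 188 groups of 4 arrays examined, 1 array stood apart from the other 3 by Dixon's criterion. The criterion sets the gap against the range of the group, so a small gap can pass. Chance passes it in about 1 of 20 groups. The count cannot be set against that share, since the groups share arrays and some markers, among them Ttr and Tcf7l2, were examined because the text names them. No cause was tested. Phc1 read 9.86 in knockout 3, above 9.68 to 9.70 in the other knockout arrays. Scml2 read 8.23 in knockout 3, below 8.46 to 8.48. Pcgf3 read 10.40 in wild type 3, below 10.58 to 10.61, and Kin, a neighbour of Sfmbt2, read 7.95 in knockout 2, below 8.22 to 8.25. Among single probe sets, Sfmbt1 5157135 read 7.05 in wild type 4, below 7.54 to 7.59. Sfmbt2 5006418 was low in array 2 of both groups, at 7.22 in wild type against 8.06 to 8.11 and at 8.00 in the knockout against 8.41 to 8.45. Sfmbt2 5123929 read 8.56 in knockout 3, below 9.05 to 9.12, and still above its highest wild type array at 8.48. Among markers of other cell types, Tcf7l2 read 9.87 in knockout 4, above 7.66 to 7.94. Ttr read 9.36 in knockout 2, below 13.18 to 13.34, and 13.38 in wild type 1, above 13.32 to 13.33.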

How the results depend on the processing

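Sfmbt2 was higher in the knockout under every alternative run, a description only, since this contrast chose the gene. Leaving out 1 array could not turn its sign, because its groups did not overlap. Its difference ranged from 0.83 (without knockout 4) to 1.03 (without knockout 3) when 1 array was left out, was 1.05 without both replicates numbered 3, and was 0.69 with the signal filter at the 75th percentile, where 4 probe sets were retained. No level of the other 9 members passed under any setting. Their usage count was 0 to 1 when 1 array was left out (Phc1 5445866 without knockout 2) and 2 with array weights. The labels do not say whether the replicate numbers pair the arrays. Deviations of same-numbered arrays from their group means correlated at 0.25, -0.0039, 0.033 and 0.17. Differently numbered arrays were not compared, so pairing was not tested. With the replicate number as a block, Sfmbt2 differed by 0.93 (SE 0.11) and no other member was called.

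Several differences changed sign, and the cause was not tested. Not all were small in the main fit, with Cdkn2a at -0.21 and Scml2 at -0.19. Leaving out 1 array gave ranges of -0.11 to 0.0075 for Ezh2, -0.0033 to 0.32 for Hoxd11, -0.16 to 0.12 for Kdm6a, -0.072 to 0.0044 for Phc1, -0.0061 to 0.047 for Phc2, -0.017 to 0.12 for Sfmbt1 and -0.085 to 0.021 for Suz12. Without both replicates numbered 3, an alternative chosen after seeing the data, Hoxd11 was -0.051 and Suz12 0.045. With no filter, Cdkn2a was 0.15, Hoxb3 -0.032, Kdm6a -0.029, Mbd6 0.090, Phc2 -0.22, Ring1 -0.088 and Scml2 0.067. At the 75th percentile, Aebp2 was -0.012, Eed -0.026, Ezh2 0.0086, Kdm6b 0.019, Mbd6 0.030, Scml2 0.15, Sfmbt1 -0.076 and Suz12 0.0090. Kdm6a was -0.018 after quantile normalization and -0.026 after cyclic loess, where Phc2 was -0.0060. Array weights gave -0.050 for Kdm6a, -0.037 for Ring1 and 0.017 for Suz12. The mean of probe sets gave 0.050 for Mbd6, 0.019 for Phc1, -0.0055 for Rnf2, 0.056 for Scml2 and -0.044 for Sfmbt1. Over all genes, 15 were called, 24 after quantile normalization and 71 with array weights. Signal limits which targets could be read: 33 of 37 Hox genes had fewer than 4 retained probe sets and were not tested.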
